A study of Mus musculus with 6 samples.

Results

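Imprinted genes are expressed mainly from the copy inherited from 1 parent. The 40 genes described here were listed by name as known imprinted genes, with earlier results of these data known, and were found by gene ID among 18857 genes with reads. They lie in 16 imprinted clusters or single loci. By assignment 22 are expressed from the paternal copy, 16 from the maternal copy and 2 in an isoform-dependent way. These assignments are textbook background: the files hold gene totals, so the parental copy behind any read is not known. The assignments need not hold in these cells: Ube3a, for example, is maternally expressed in neurons.

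The study profiled polyA RNA of KH2 cells, a mouse embryonic stem cell (ESC) line of C57BL/6 x 129 background, with 6 libraries and 1 library per group. Wild-type KH2 cells received PD0325901, which blocks Mek, the kinase upstream of Erk, over 48 hours or were untreated. The other 4 groups had the genotype iErk1; Erk KO, in which Erk1 is kept up by doxycycline (Dox). Cells 96 hours after Dox withdrawal either had PD0325901 over the last 48 hours or did not, and are called treated and untreated Erk KO cells. The remaining groups were cells 48 hours after Dox withdrawal and cells still on Dox. The labels do not say whether the engineered line is 1 clone, which inhibitor dose was used or whether feeder cells were present.

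Imprinting rests on control regions that gain DNA methylation in the egg or the sperm. The embryo keeps that methylation through Dnmt1 and Uhrf1, which copy it at replication, and through Zfp57 and Trim28, which guard the control regions. Most clusters are marked in the egg, whereas H19/Igf2 and Dlk1/Dio3 are marked in the sperm. Many imprinted genes act on growth: paternally expressed ones often promote it and maternally expressed ones often restrain it.

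CpG sites are where such methylation sits, so 6 promoter windows from clusters with changed members are shown, from RefSeq on build GRCm38.p6. Each runs from 250 bases before to 50 bases after an annotated start, and capitals mark CpG. Egg-marked regions are known at the starts of Plagl1, Kcnq1ot1 and Peg3, and the Peg3 window overlaps that of its neighbour Usp29, on the other strand, by 263 bases.
Meg3 (chr12:109540746-109541045, plus strand): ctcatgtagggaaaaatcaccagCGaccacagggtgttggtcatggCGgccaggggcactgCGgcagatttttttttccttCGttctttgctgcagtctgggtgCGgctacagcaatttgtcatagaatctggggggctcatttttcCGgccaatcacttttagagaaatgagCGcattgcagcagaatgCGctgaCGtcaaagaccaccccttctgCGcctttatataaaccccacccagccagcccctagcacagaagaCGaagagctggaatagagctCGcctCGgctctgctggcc
Dio3 (chr12:110278980-110279279, plus strand): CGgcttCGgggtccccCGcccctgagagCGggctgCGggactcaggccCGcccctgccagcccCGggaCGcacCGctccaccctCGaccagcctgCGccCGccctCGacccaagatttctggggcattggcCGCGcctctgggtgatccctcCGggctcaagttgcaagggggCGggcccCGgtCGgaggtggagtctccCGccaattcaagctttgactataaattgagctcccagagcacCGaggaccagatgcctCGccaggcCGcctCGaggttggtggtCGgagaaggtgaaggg
Plagl1 (chr10:13090582-13090881, plus strand): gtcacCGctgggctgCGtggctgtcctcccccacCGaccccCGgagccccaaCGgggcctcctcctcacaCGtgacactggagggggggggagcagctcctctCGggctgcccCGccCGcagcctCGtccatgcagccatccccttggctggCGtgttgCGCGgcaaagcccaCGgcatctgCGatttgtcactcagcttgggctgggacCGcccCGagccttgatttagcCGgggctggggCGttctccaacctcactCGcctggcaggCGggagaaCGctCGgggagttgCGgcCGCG
Kcnq1ot1 (chr7:143296498-143296797, minus strand): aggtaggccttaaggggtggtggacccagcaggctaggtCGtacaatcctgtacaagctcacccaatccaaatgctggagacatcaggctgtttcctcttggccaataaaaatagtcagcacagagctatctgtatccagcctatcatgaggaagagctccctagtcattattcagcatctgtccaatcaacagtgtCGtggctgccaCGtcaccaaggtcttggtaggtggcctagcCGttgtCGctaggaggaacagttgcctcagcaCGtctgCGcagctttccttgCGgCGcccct
Phlda2 (chr7:143502475-143502774, minus strand): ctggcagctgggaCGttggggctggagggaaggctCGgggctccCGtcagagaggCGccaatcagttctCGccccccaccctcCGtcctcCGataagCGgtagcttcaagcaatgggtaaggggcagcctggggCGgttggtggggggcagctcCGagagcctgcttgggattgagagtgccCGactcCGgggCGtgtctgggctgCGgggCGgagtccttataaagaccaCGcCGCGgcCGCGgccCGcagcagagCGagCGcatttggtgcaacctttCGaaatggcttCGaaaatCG
Peg3 (chr7:6730370-6730669, minus strand): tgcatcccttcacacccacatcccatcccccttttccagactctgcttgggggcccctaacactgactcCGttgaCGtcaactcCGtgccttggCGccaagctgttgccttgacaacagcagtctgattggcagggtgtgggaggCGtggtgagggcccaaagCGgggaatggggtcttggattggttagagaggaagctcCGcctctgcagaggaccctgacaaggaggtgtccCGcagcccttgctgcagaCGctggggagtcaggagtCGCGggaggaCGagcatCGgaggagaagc

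Of these 6 windows, those of Plagl1 and Phlda2 held 26 CpG each and that of Dio3 held 25. Meg3 and Peg3 had 13 each and Kcnq1ot1 had 9. A window was found for 33 of the 40 members (the first listed where a gene had several), with a median of 13 CpG. The median was 7 over 32851 windows of all genes, where a gene with several windows was counted with each of them. The hexamer TGCCGC, the core of the Zfp57 motif, searched on both strands, was in 5 of the 33 windows (Nnat, Nap1l5, Plagl1, Grb10 and Meg3), and 11.6% of all windows held it.

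Levels are given as deposited, in RPKM (reads per kilobase of gene and per 1e6 library reads), on totals of 9.05 to 9.96 times 1e6 reads per library. Mapk3, which encodes Erk1, had 52.8 and 56.4 RPKM in treated and untreated KH2 cells, between 6.75 and 9.18 RPKM in the 3 libraries without Dox, and 14.8 RPKM with Dox. The 8 ESC markers had reads in all 6 libraries and summed to between 2582 and 4185 RPKM. The 20 fibroblast markers also had reads in every library, the defining Col1a1, Col3a1 and Dcn among them. Their summed level was 2684 and 498 RPKM in treated and untreated KH2 cells, 982 and 222 RPKM in treated and untreated Erk KO cells, and 159 RPKM both with Dox and 48 hours after its withdrawal. Of 10 trophoblast markers Tpbpa and Prl3d1 had no reads in any library, and of 10 primitive endoderm markers Afp had none.

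Between 28 and 32 members reached 1 RPKM in each library. Cd81, a tetraspanin gene, was the most abundant member in treated and untreated KH2 cells at 277 and 160.1 RPKM. Gnas, which encodes the stimulatory G protein subunit, was the most abundant in the 4 engineered libraries, at 93.7 to 133 RPKM. At the low end, 7 members (Airn, Asb4, Usp29, Rtl1, Kcnq1, Snrpn and Nap1l5) met the limits below in no comparison. Snrpn had 2 reads in 1 library and 0 in the others, and its transcript also carries Snurf, which had no row. How reads of that shared transcript were counted is not given, so the expression of Snrpn cannot be judged from these reads. Usp29 lay between 0.0906 and 0.25 RPKM, although its promoter window overlaps that of Peg3, a gene with 5.86 to 12.8 RPKM.

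With 1 library per group no replicate check was possible, and each ratio compares 2 libraries. A gene passed as higher or lower when its log2 ratio of RPKM + 0.5 was at least 1 in size, the higher library had at least 1 RPKM, both together had at least 20 reads, and the exact 95% counting interval of the fold excluded 1. "Rose" and "fell" below mean that a gene passed. Of the 40 members 25 passed in at least 1 of 5 comparisons and 28 met the limits on reads and RPKM in all 5. The share of all genes that passed in at least 1 comparison was not computed, so the 25 has no background to be read against. Another 8 met the limits at least once and never passed: Gnas, Sgce, Blcap, Impact, Slc38a4, Ppp1r9a, Dlk1 and Cdkn1c.

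**Figure D1:**
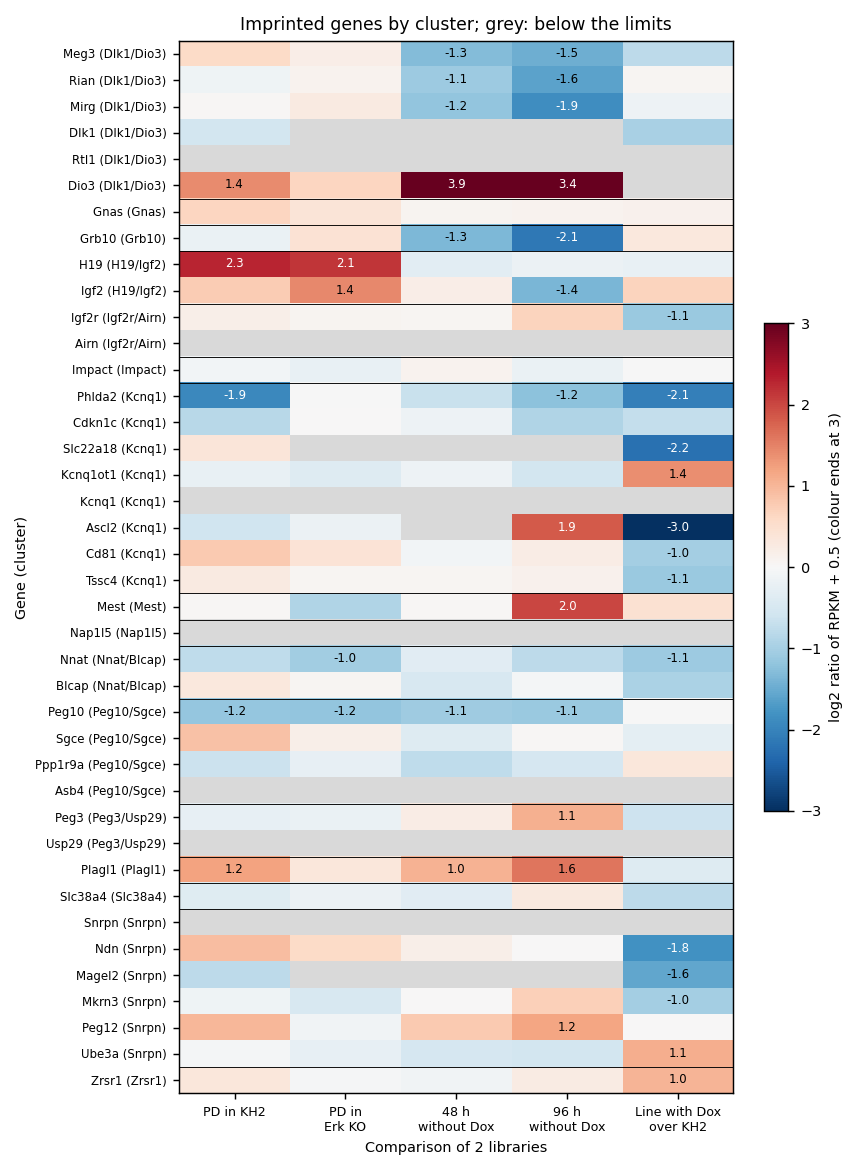
Log2 ratio of RPKM + 0.5 for the 40 imprinted genes (rows, by cluster) in 5 comparisons of 2 libraries (columns). Red is higher and blue lower in the first library of a comparison, grey is below the limits on reads or RPKM, and a printed number marks a gene that passed, with runs of them in the Dlk1/Dio3 rows after Dox withdrawal and in the Kcnq1 and Snrpn rows of the last column.

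Mek inhibition was compared in wild-type cells and in Erk KO cells. In both, the H19 RNA was about 5-fold higher with the inhibitor and Peg10 was lower. In KH2 cells 3 of 33 members within the limits were higher (H19, Dio3 and Plagl1), where 3.86% of 12787 genes were higher, and 2 were lower (Peg10 and Phlda2), where 1.22% were lower. In Erk KO cells 2 of 30 members were higher (H19 and Igf2), where 1.34% of 11920 genes were higher, and 2 were lower (Peg10 and Nnat), where 0.587% were lower. The members' median log2 ratio was 0.04 in KH2 and 0.03 in Erk KO cells, against -0.02 and 0.01 over all genes tested.

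H19, a maternally expressed non-coding RNA, and Igf2, a growth factor gene expressed from the paternal copy of the same locus, share enhancers. H19 had 36.3 and 7.03 RPKM in treated and untreated KH2 cells, 24.5 and 5.19 RPKM in treated and untreated Erk KO cells, and 5.97 and 4.73 RPKM with Dox and 48 hours after its withdrawal. The treated libraries were the highest of the series for H19, and the share of all genes with such a split was not computed. H19 was 5.16-fold higher (interval 4.37 to 6.13) in KH2 cells and 4.72-fold higher (3.91 to 5.72) in Erk KO cells. The fibroblast marker sum was 5.39-fold and 4.42-fold higher in the same pairs, and 14 of the 20 markers rose in each. Col1a1 alone gave 878 and 96.4 RPKM of the sum in treated and untreated KH2 cells. In treated and untreated Erk KO cells it gave 218 and 25.9 RPKM. Dcn had 16.5 and 10.9 RPKM in the KH2 pair and 15.7 and 12.6 RPKM in the Erk KO pair, and did not pass. Twist1 had 6.70 and 3.63 RPKM and 2.81 and 2.96 RPKM in the same order and did not pass. The part of the fibroblast markers in the H19 result was not tested. In bulk RNA more cells of a type and more RNA per cell cannot be told apart.

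Igf2 had 26.7 and 15.4 RPKM in treated and untreated KH2 cells, 26.1 and 9.33 RPKM in treated and untreated Erk KO cells, and 24.8 and 28.8 RPKM with Dox and 48 hours after its withdrawal. Untreated Erk KO cells were the lowest of the 6 libraries. Igf2 was 2.80-fold higher (2.48 to 3.16) with the inhibitor in Erk KO cells, and 1.73-fold higher (1.56 to 1.92) in KH2 cells, which did not pass. Igf2r, whose product binds and removes Igf2, had 24.6 and 21.6 RPKM in treated and untreated KH2 cells and 16.7 and 15.6 RPKM in treated and untreated Erk KO cells, and did not pass in either pair.

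Peg10, a retrotransposon-derived gene needed in the placenta, had 30.2 and 68.4 RPKM in treated and untreated KH2 cells, 13.4 and 31.1 RPKM in treated and untreated Erk KO cells, and 67.8 and 32.2 RPKM with Dox and 48 hours after its withdrawal. Both treated libraries were below their untreated partners: Peg10 was 2.27-fold lower (2.14 to 2.40) in KH2 cells and 2.32-fold lower (2.14 to 2.51) in Erk KO cells. Sgce, a sarcoglycan gene that starts beside Peg10 on the other strand, had 7.53 and 3.87 RPKM in treated and untreated KH2 cells and 3.69 and 3.20 RPKM in treated and untreated Erk KO cells, and did not pass. Ppp1r9a, which encodes neurabin, had 2.33 and 3.92 RPKM and 2.86 and 3.47 RPKM in the same pairs and did not pass. Col1a2, a collagen gene that flanks the cluster, is on the fibroblast list and had 244 and 38.9 RPKM in treated and untreated KH2 cells and 98.3 and 16.5 RPKM in treated and untreated Erk KO cells.

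Phlda2, a maternally expressed gene that restrains placental growth, had 16.8 and 65.7 RPKM in treated and untreated KH2 cells, 6.21 and 6.27 RPKM in treated and untreated Erk KO cells, and 15.4 and 9.51 RPKM with Dox and 48 hours after its withdrawal. It was 3.91-fold lower (3.17 to 4.86) with the inhibitor in KH2 cells. In Erk KO cells treated and untreated levels were within counting error (fold 0.991, 0.642 to 1.53). Cdkn1c, the p57 cell cycle inhibitor gene of the same cluster, had 8.27 and 15.2 RPKM in treated and untreated KH2 cells and 4.64 and 4.58 RPKM in treated and untreated Erk KO cells, and did not pass. The summed level of 10 trophoblast markers was 36.1 and 40.5 RPKM in treated and untreated KH2 cells, most of it from Tfap2c at 26.4 and 25.8 RPKM. Of 5 trophoblast markers within the limits 1 fell, with a median log2 ratio of -0.63. That marker was Cdx2, at 0.927 and 2.77 RPKM in treated and untreated cells, while Eomes had 4.06 and 6.58 RPKM and did not pass. The part of the trophoblast markers in the Phlda2 result was not tested. The difference in Phlda2 response between the cell states was not tested.

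Plagl1, a zinc finger gene that slows the cell cycle, had 7.54 and 3.001 RPKM in treated and untreated KH2 cells, 9.87 and 7.63 RPKM in treated and untreated Erk KO cells, and 2.17 and 5.04 RPKM with Dox and 48 hours after its withdrawal. It was 2.51-fold higher (2.06 to 3.07) with the inhibitor in KH2 cells, and 1.29-fold higher (1.13 to 1.48) in Erk KO cells, which did not pass. Dio3, the deiodinase that inactivates thyroid hormone, had 57 and 16 reads in treated and untreated KH2 cells, 3.58-fold higher (2.03 to 6.68). In treated and untreated Erk KO cells it had 12.99 and 8.10 RPKM, 1.60-fold higher (1.30 to 1.98), and did not pass.

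Nnat, a small membrane protein gene inside an intron of Blcap, had 7.68 and 13.4 RPKM in treated and untreated KH2 cells, 1.33 and 3.29 RPKM in treated and untreated Erk KO cells, and 5.996 and 4.63 RPKM with Dox and 48 hours after its withdrawal. It was 2.47-fold lower (1.35 to 4.72) with the inhibitor in Erk KO cells, and did not pass in KH2 cells. Blcap, which shares the locus, had 19.2 and 15.5 RPKM in treated and untreated KH2 cells and 7.75 and 7.47 RPKM in treated and untreated Erk KO cells, and did not pass.

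**Figure D2:**
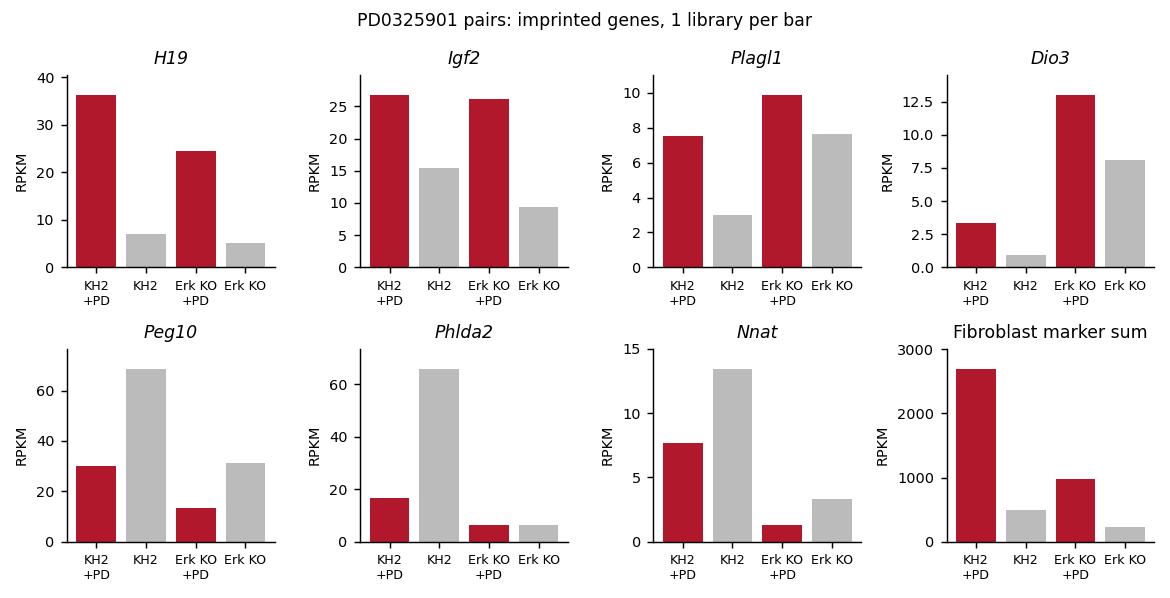
RPKM of 7 imprinted genes and summed RPKM of 20 fibroblast markers (vertical axes) in treated (red) and untreated (grey) KH2 cells and Erk KO cells 96 hours without Dox. Each bar is 1 library, without an error bar. H19 and the fibroblast sum are higher and Peg10 is lower in both treated libraries, while Phlda2 differs in the KH2 pair and has 6.21 and 6.27 RPKM in the Erk KO pair.

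An effect shared by both pairs was tested on their 4 libraries with edgeR's quasi-likelihood test, with cell state as a block. It had 1 residual degree of freedom and a median of 13.8 prior degrees of freedom. Its p-values, and the SEs derived from its test statistics, therefore rest mostly on a spread shared across genes. Of 36 members tested 8 were called higher, where 6.05% of 14782 genes were higher, and 5 lower, where 2.92% were lower. In edgeR the log2 change was 2.31 ± 0.13 (SE) for H19, with an adjusted p of 1.55e-08. It was -1.20 ± 0.095 (SE) for Peg10, with edgeR's adjusted p of 6.15e-07, and 1.13 ± 0.135 (SE) for Igf2, with edgeR's adjusted p of 5.28e-05. Dio3 (0.97), Ndn (0.86), Plagl1 (0.79), Cd81 (0.60), Gnas (0.52) and Meg3 (0.43) were also called higher. Phlda2 (-1.33), Nnat (-0.93), Ppp1r9a (-0.51) and Kcnq1ot1 (-0.37) were called lower. The test estimates 1 effect over both pairs, so the Phlda2 call does not describe the Erk KO pair.

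These calls depended on the model. DESeq2 called 5 members higher (H19, Igf2, Plagl1, Cd81 and Gnas) and 1 lower (Peg10), and edgeR on all 6 libraries called H19 higher and Peg10 lower. Without the block edgeR called 0 members, and 2 had an unadjusted p under 0.05.

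Loss of Erk was followed by the libraries 48 and 96 hours after Dox withdrawal, set against the library with Dox. The non-coding RNAs of the Dlk1/Dio3 cluster fell, as did Grb10 and Peg10, while Dio3 and Plagl1 rose. At 48 hours 2 of 29 members within the limits were higher, where 2.77% of 11386 genes were higher, and 5 were lower, where 2.13% were lower. At 96 hours 6 of 30 were higher, where 7.62% of 11804 genes were higher, and 7 were lower, where 2.07% were lower. The members' median log2 ratio was -0.14 at 48 hours and -0.02 at 96 hours, against -0.03 and 0.05 over all genes tested. Both comparisons share the library with Dox, and the fibroblast marker sum was 0.998 times its level at 48 hours and 1.40 times at 96 hours.

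Of 7 primitive endoderm markers within the limits 1 fell at 48 hours (Gata6) and 5 fell at 96 hours (Gata6, Sox7, Dab2, Cubn and Lama1), with median log2 ratios of -0.25 and -1.21. Gata6, a transcription factor gene of that lineage, had 8.32, 2.58 and 1.195 RPKM with Dox and 48 and 96 hours after its withdrawal. At 96 hours and with Dox the endocytic adaptor gene Dab2 had 2.93 and 13.7 RPKM and the receptor gene Cubn 0.275 and 3.19 RPKM. The summed level of all 10 markers was 120.2 and 119 RPKM at 96 hours and with Dox, of which Col4a1 gave 97.8 and 53.7 RPKM. Their part in the members' changes was not tested.

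Meg3, Rian and Mirg are maternally expressed non-coding RNAs, and Rian and Mirg host small RNAs. With Dox and 48 and 96 hours after its withdrawal, Rian had 63.2, 29.6 and 20.4 RPKM. Meg3 had 11.2, 4.28 and 3.72 RPKM and Mirg had 5.25, 2.04 and 1.07 RPKM in the same order. All 3 passed as lower at both times. At 96 hours Rian was 3.09-fold lower (2.84 to 3.37), Meg3 3.01-fold lower (2.69 to 3.37) and Mirg 4.91-fold lower (2.73 to 9.48), the last on 14 reads against 65. Of the 4 flanking genes (Wars, Wdr25, Ppp2r5c and Dync1h1) none passed in any of the 5 comparisons.

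With PD0325901 these RNAs did not pass: Rian had 21.9 and 20.4 RPKM, Meg3 4.31 and 3.72 RPKM and Mirg 1.39 and 1.07 RPKM in treated and untreated Erk KO cells. In treated and untreated KH2 cells Rian had 54.8 and 60.3 RPKM, Meg3 29.9 and 19.8 RPKM and Mirg 6.14 and 5.94 RPKM.

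Dio3, at the far end of the cluster and mainly paternally expressed, moved in the other direction. It had 6 reads with Dox and 217 and 151 reads 48 and 96 hours after its withdrawal, or 0.341, 11.9 and 8.10 RPKM. The difference was 35.1-fold higher (15.9 to 96.6) at 48 hours and 23.8-fold higher (10.7 to 65.8) at 96 hours, and rests on few reads in the library with Dox. Reads covered 14.2%, 95.7% and 91.2% of the gene in the same order. Dlk1, the paternally expressed Notch-related gene at the near end, had 0.909, 0.529 and 0.601 RPKM and was below the limits. Its level in treated and untreated KH2 cells was 1.39 and 2.26 RPKM.

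Grb10, an adaptor gene that restrains insulin and Igf signalling, had 66.7, 25.98 and 14.7 RPKM with Dox and 48 and 96 hours after its withdrawal, the lowest level of the 6 libraries being the last. It was 2.57-fold lower (2.41 to 2.74) at 48 hours and 4.53-fold lower (4.18 to 4.91) at 96 hours. Peg10 was 2.11-fold lower (2 to 2.22) at 48 hours and 2.18-fold lower (2.07 to 2.30) at 96 hours. Peg10 therefore passed as lower in 4 comparisons, of which the 48 and 96 hour ones share the library with Dox, and the 96 hour and Erk KO inhibitor ones share the untreated Erk KO library. At 96 hours Igf2 was 2.66-fold lower (2.36 to 3.01) and Phlda2 2.46-fold lower (1.73 to 3.56), and neither passed at 48 hours. The fall in Igf2 and its rise with the inhibitor in Erk KO cells both rest on the untreated Erk KO library.

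Plagl1 was 2.32-fold higher (1.84 to 2.93) at 48 hours and 3.51-fold higher (2.83 to 4.38) at 96 hours. Mest, a paternally expressed gene of mesoderm, had 1.59, 1.65 and 7.83 RPKM with Dox and 48 and 96 hours after its withdrawal, and was 4.94-fold higher (3.51 to 7.11) at 96 hours. Its level was 3.95 RPKM in treated Erk KO cells, and 1.07 and 1.03 RPKM in treated and untreated KH2 cells. Ascl2, a trophoblast transcription factor gene, had 5, 10 and 40 reads over the same times, 7.56-fold higher (2.98 to 24.5) at 96 hours. That ratio rests on 5 reads in the library with Dox, which is also the library set against KH2 cells below.

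Peg3, a paternally expressed zinc finger gene, had 7.71 and 9.25 RPKM in treated and untreated KH2 cells, 11.1 and 12.8 RPKM in treated and untreated Erk KO cells, and 5.86 and 6.92 RPKM with Dox and 48 hours after its withdrawal. Its highest levels were in the 2 libraries 96 hours without Dox, and it was 2.19-fold higher (1.94 to 2.49) at 96 hours. Peg12, of the Snrpn cluster, had 1.17, 2.38 and 3.27 RPKM over the times and 2.80 and 1.17 RPKM in treated and untreated KH2 cells, and was 2.80-fold higher (1.82 to 4.43) at 96 hours. TMM scaling lowered the median of all genes by 0.105 on the log2 scale at 96 hours, where Peg3 (log2 ratio 0.97) no longer passed and Cdkn1c passed as lower. By assigned parental copy, at 96 hours 5 of 15 paternally expressed members within the limits were higher and 2 lower. Of 13 maternally expressed ones 1 was higher and 5 lower, where 7.62% of all genes were higher and 2.07% lower. At 48 hours 2 of 15 paternally expressed members were higher and 1 lower, and of 12 maternally expressed ones 0 were higher and 4 lower, where 2.77% and 2.13% of all genes were. With PD0325901 in KH2 cells the counts were 2 higher and 1 lower of 17 paternally and 1 and 1 of 14 maternally expressed members. There 3.86% of all genes were higher and 1.22% lower. In Erk KO cells the counts were 1 and 2 of 15 and 1 and 0 of 13, where 1.34% of all genes were higher and 0.587% lower. In the line with Dox against KH2 cells they were 2 and 4 of 16 and 1 and 6 of 14, where 2.76% of all genes were higher and 21.4% lower. Members of 1 cluster were counted singly, and Meg3, Rian and Mirg gave 3 of the maternal falls at both 48 and 96 hours. Among maternally expressed members of egg-marked clusters 1 of 8 was lower at 48 hours and 2 of 9 at 96 hours. In the line 5 of the 6 maternal falls were in the Kcnq1 cluster. These splits were not tested.

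**Figure D3:**
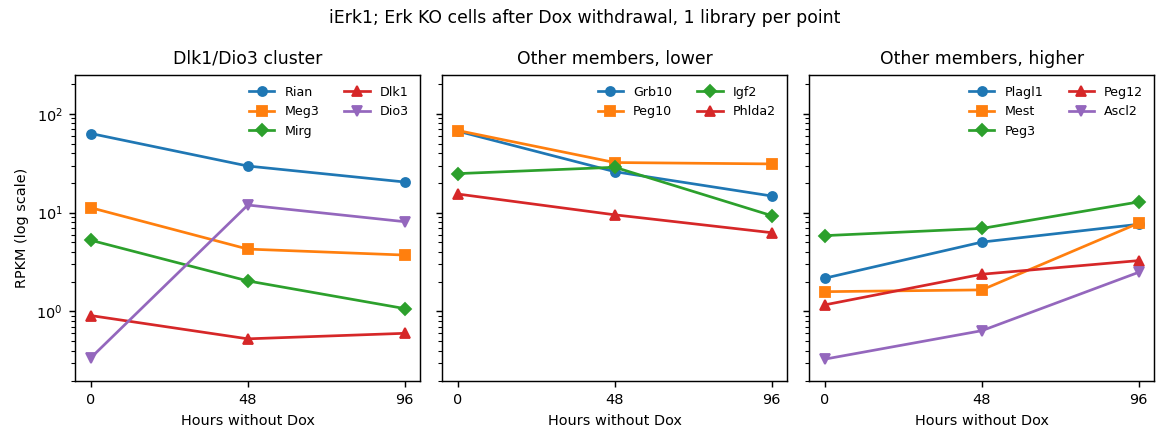
RPKM on a log scale (vertical axis) of 14 imprinted genes against hours without Dox (horizontal axis) in iErk1; Erk KO cells, 1 library per point. Rian, Meg3 and Mirg lie lower at 48 and 96 hours than at 0, Dio3 is at 11.9 RPKM at 48 hours, and Grb10 ends at 14.7 RPKM.

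The line with Dox was also set against untreated KH2 cells. Of the 7 maternally expressed members of the Kcnq1 cluster 5 fell in the line (Phlda2, Ascl2, Slc22a18, Cd81 and Tssc4), 3 of them also with TMM scaling. Kcnq1ot1, the RNA that silences the cluster in cis from the paternal copy, rose. A link between these changes was not tested. Of 32 members within the limits 3 were higher, where 2.76% of 12421 genes were higher, and 10 were lower, where 21.4% were lower. The median log2 ratio was -0.50 for the members and -0.37 for all genes tested. TMM scaling raised the median of all genes by 0.37 and gave 1006 genes higher and 1419 lower instead of 343 and 2662. With it 4 members were higher and 5 lower, so the ratios below are to be read against -0.37. The files of the 2 KH2 libraries list gene symbols and those of the 4 engineered ones do not, and 17403 genes had reads in KH2 cells but 16042 in the line. Whether the sets were sequenced or processed separately is not given in the sources used here, and such a split and the line itself cannot be told apart.

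Kcnq1ot1 had 5032 reads in the line and 1628 reads in KH2 cells, 2.99-fold higher (2.82 to 3.16). Reads covered 6.22% of its 83437 bases in the line and 7.68% in KH2 cells, so its RPKM describes a small part of the annotated gene. Kcnq1ot1 had 1.77 and 2.15 RPKM in treated and untreated KH2 cells, 3.06 and 4.19 RPKM in treated and untreated Erk KO cells, and 6.41 and 5.73 RPKM with Dox and 48 hours after its withdrawal. All 4 engineered libraries were above the KH2 pair, and no other comparison passed. The share of all genes placed this way was not computed.

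Of its cluster, Phlda2 had 15.4 RPKM in the line and 65.7 RPKM in KH2 cells, 4.26-fold lower (3.44 to 5.31). This fall and the fall in Phlda2 with PD0325901 in KH2 cells both rest on the untreated KH2 library. Phlda2 had 16.8 RPKM or less in every other library. Ascl2 had 5 reads in the line and 92 in KH2 cells, 19.05-fold lower (7.87 to 60.1), and the transporter gene Slc22a18 had 3 and 40 reads, 13.8-fold lower (4.40 to 69.7). Phlda2, Ascl2 and Slc22a18 also passed with TMM scaling. The fall in Ascl2 and its later rise after Dox withdrawal both rest on the 5 reads in the library with Dox. Cdkn1c had 8.98 RPKM in the line and 15.2 RPKM in KH2 cells (log2 ratio -0.72, and -0.33 with TMM scaling) and did not pass, and Kcnq1 was below the limits. Slc22a18 had 3.75 and 2.82 RPKM in treated and untreated KH2 cells, 0.130 and 0.193 RPKM in treated and untreated Erk KO cells, and 0.204 and 0.132 RPKM with Dox and 48 hours after its withdrawal. Slc22a18 was thus at 2 or 3 reads in every engineered library, against 53 and 40 reads in treated and untreated KH2 cells.

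Cd81 had 277 and 160.1 RPKM in treated and untreated KH2 cells, 122 and 92.1 RPKM in treated and untreated Erk KO cells, and 78.8 and 74.5 RPKM with Dox and 48 hours after its withdrawal. In the line against KH2 cells Cd81 had a log2 ratio of -1.02, and -0.61 with TMM scaling, where it no longer passed. Tssc4 had 17.5 and 14.5 RPKM in treated and untreated KH2 cells, 7.30 and 6.99 RPKM in treated and untreated Erk KO cells, and 6.404 and 6.73 RPKM with Dox and 48 hours after its withdrawal. Its log2 ratio in the line was -1.12, and -0.74 with TMM scaling. All 4 engineered libraries were below both KH2 libraries for these 2 genes. The share of all genes placed this way was not computed, and 21.4% of all genes tested were lower in the line with Dox than in KH2 cells.

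In the Snrpn cluster 3 paternally expressed genes were lower in the line. Ndn, a Mage-family gene, had 20.3 and 10.5 RPKM in treated and untreated KH2 cells, 4.25 and 2.68 RPKM in treated and untreated Erk KO cells, and 2.64 and 3.06 RPKM with Dox and 48 hours after its withdrawal. It was 3.99-fold lower (2.81 to 5.77) in the line. Magel2, of the same family, had 3 reads in the line and 50 in KH2 cells, 17.3-fold lower (5.57 to 86.5), and its level was between 0.0218 and 0.0884 RPKM in the 4 engineered libraries, against 0.474 and 1.18 RPKM in treated and untreated KH2 cells. Both passed with TMM scaling. Mkrn3, a ring finger gene, had 1.08 RPKM in the line and 2.70 RPKM in KH2 cells, and its log2 ratio of -1.02 became -0.71 with TMM scaling.

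Ube3a, a ubiquitin ligase gene that is maternally expressed in neurons, had 13.7 and 14.3 RPKM in treated and untreated KH2 cells, 17.6 and 20.97 RPKM in treated and untreated Erk KO cells, and 30.7 and 21.4 RPKM with Dox and 48 hours after its withdrawal. It was 2.15-fold higher (1.96 to 2.36) in the line, its highest level of the 6 libraries. Zrsr1, a splicing factor retrogene, had 6.96 RPKM in the line and 3.18 RPKM in KH2 cells, 2.18-fold higher (1.77 to 2.71). As a copy of another gene, its unique reads are an uncertain measure. Igf2r, at 9.68 RPKM in the line and 21.6 RPKM in KH2 cells, and Nnat were lower, with log2 ratios of -1.12 and -1.10. With TMM scaling these were -0.72 and -0.71 and did not pass, and Igf2 passed as higher. The fibroblast marker sum was 159 RPKM in the line and 498 RPKM in KH2 cells, with 11 of 20 markers lower, and the trophoblast sum was 21.3 and 40.5 RPKM. Their part in these results was not tested.

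**Figure D4:**
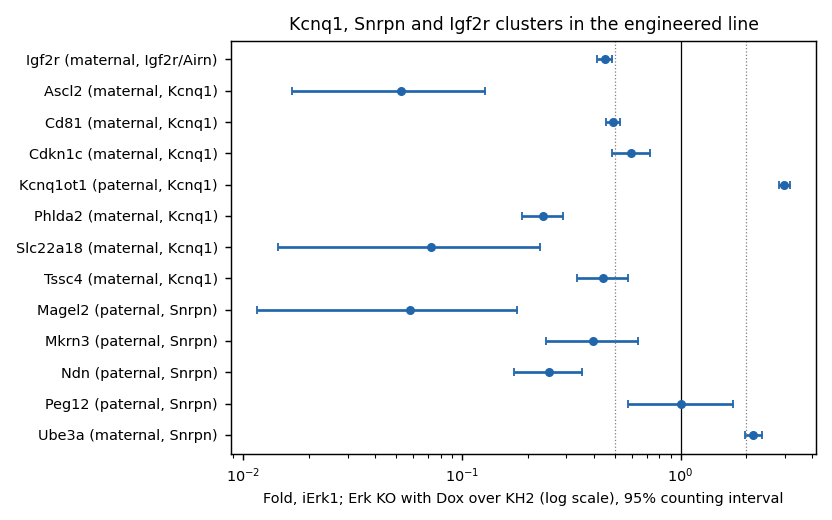
Fold in the iErk1; Erk KO line with Dox over KH2 cells (horizontal axis, log scale) for members of 3 clusters within the limits, with 95% counting intervals as bars. Dotted lines mark 2-fold. Kcnq1ot1 stands at 2.99 and Ube3a at 2.15. Igf2r, Phlda2, Ascl2, Slc22a18, Ndn and Magel2 lie left of the lower line with their whole intervals.

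Mkrn3 had 2.41 and 2.70 RPKM in treated and untreated KH2 cells, 1.35 and 2.08 RPKM in treated and untreated Erk KO cells, and 1.08 and 1.08 RPKM with Dox and 48 hours after its withdrawal. Zrsr1 had 4.13 and 3.18 RPKM in treated and untreated KH2 cells, 8.15 and 8.39 RPKM in treated and untreated Erk KO cells, and 6.96 and 6.38 RPKM with Dox and 48 hours after its withdrawal. Zrsr1 was higher in all 4 engineered libraries than in the KH2 pair, and the share of all genes placed this way was not computed. Ascl2 had 3.98 and 6.28 RPKM in treated and untreated KH2 cells and 2.15 and 2.49 RPKM in treated and untreated Erk KO cells, and Peg12 had 3.01 and 3.27 RPKM in treated and untreated Erk KO cells. Impact, which regulates the translational response to amino acid shortage, lay between 19.7 and 28.9 RPKM in the 6 libraries. Slc38a4, an amino acid transporter gene, lay between 30.7 and 67.5 RPKM, and neither passed in any comparison. Gnas had 133 and 85.2 RPKM in treated and untreated KH2 cells, 133 and 101 RPKM in treated and untreated Erk KO cells, and 93.7 and 99.5 RPKM with Dox and 48 hours after its withdrawal. Both treated libraries were above their untreated partners, by less than the limit for passing, and the shared test above called it higher.

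The machinery that sets and keeps imprints was followed with a list of 25 genes, of which 24 had a row. With PD0325901 the de novo methyltransferase gene Dnmt3a fell in both pairs, to 10.4 RPKM in treated KH2 cells against 32.02 RPKM untreated, and to 8.92 RPKM in treated Erk KO cells against 20.01 RPKM untreated. Dnmt3b had 21.97 and 80.5 RPKM in treated and untreated KH2 cells, where it fell, and 29.8 and 51.4 RPKM in treated and untreated Erk KO cells, where it did not pass. Dnmt1, Uhrf1, Zfp57 and Trim28 passed in none of the 5 comparisons: Dnmt1 ranged from 66.2 to 89.4 RPKM over the libraries, Uhrf1 from 99.01 to 159.9 RPKM, Zfp57 from 86.8 to 187 RPKM and Trim28 from 424 to 611 RPKM. Zfp57 was just under the limit in the line against KH2 cells, with a log2 ratio of 0.94, and with TMM scaling, applied to this list after seeing the data, it passed as higher at 1.35.

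Over this list, with 23 genes within the limits in each comparison, 1 was higher and 2 lower in treated KH2 cells, where 3.86% of all genes were higher and 1.22% lower. In treated Erk KO cells 0 were higher and 1 lower, where 1.34% and 0.587% of all genes were. At 48 hours without Dox 2 were higher and 2 lower, where 2.77% and 2.13% of all genes were, and at 96 hours 2 and 0, where 7.62% and 2.07% were. In the line with Dox 2 were higher and 1 lower, where 2.76% and 21.4% of all genes were, and with TMM scaling 8 were higher and 1 lower. At 48 hours Dnmt3a and Dnmt3l fell, and Prdm14 and Dppa3, a protector of methylation in the zygote, rose. Dppa3 had 8.45, 92.2 and 73.1 RPKM with Dox and 48 and 96 hours after its withdrawal. In the same order Dnmt3a had 33.1, 9.34 and 20.01 RPKM and Dnmt3l had 132, 55.1 and 221 RPKM. Neither passed at 96 hours, where Dnmt3l was above its level with Dox.

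A second list held 44 further imprinted genes, of which 39 had a row. In treated KH2 cells 3 of 30 within the limits were higher and 2 lower, where 3.86% and 1.22% of all genes were. In treated Erk KO cells 1 of 26 was higher and 1 lower, where 1.34% and 0.587% were. At 48 hours without Dox 1 of 22 was higher and 0 lower, where 2.77% and 2.13% were. At 96 hours 4 of 25 were higher, 16% against 7.62% of all genes, and 1 lower, where 2.07% were. In the line with Dox 1 of 29 was higher, where 2.76% were, and 11 were lower, 37.9% against 21.4% of all genes. This list was not counted with TMM scaling. Dcn, also on the fibroblast list, is among those higher at 96 hours and those lower in the line. Tfpi2, a protease inhibitor gene near Peg10, had 4 and 68 reads in treated and untreated KH2 cells, 16.9-fold lower (6.32 to 63.9), and 2 and 55 reads in treated and untreated Erk KO cells, 27.2-fold lower (7.17 to 229.9). Cobl, near Grb10, had 72.5 RPKM in the line and 26.9 RPKM in KH2 cells, 2.69-fold higher (2.53 to 2.86). Of 62 genes that flank the clusters and are on no imprinted list, 48 were within the limits in treated KH2 cells. Of these 2 were higher and 0 lower, where 3.86% and 1.22% of all genes were. In treated Erk KO cells 1 of 44 was higher and 0 lower, where 1.34% and 0.587% were. At 48 hours 1 of 44 was higher and 0 lower, where 2.77% and 2.13% were. At 96 hours 2 of 44 were higher and 0 lower, where 7.62% and 2.07% were. In the line with Dox 0 of 47 were higher and 6 lower, 12.8% against 21.4% of all genes. Aurkc, a kinase gene that flanks Peg3 and Usp29, was 13.6-fold higher (6.66 to 32.2) at 48 hours and 18.9-fold higher (9.37 to 44.5) at 96 hours.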

How the data were processed

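Per the labels' protocols, sequencing was single-end with 50-base reads. The deposited counts are uniquely mapped reads per gene by the authors, the deposited RPKM equals those reads per kilobase of the listed length and per 1e6 counted reads, and the deposited coverage is the percent of gene length covered. The submitters' processing notes name mm9; the aligner and annotation are not given in the sources used here. Strand use is not stated, so overlapping pairs (Nnat and Blcap, Kcnq1ot1 and Kcnq1, Airn and Igf2r) cannot be told apart.

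Files were joined by gene ID, with missing rows set to 0. Since 4 files held no symbols, RefSeq gave them for 18805 genes. Gene lengths differed between files for 1 member, Airn. Intervals are exact Clopper-Pearson intervals and cover counting error only. The shared PD0325901 effect used edgeR 4.0.16 (TMM, at least 20 reads over the 4 libraries, Benjamini-Hochberg over all genes, threshold 0.05), with DESeq2 1.42.0 as an alternative.

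The members, lists and tests were chosen with earlier results of these data known. Named genes are members, genes of other lists that passed, 7 methylation genes, and the 2 nearest genes with at least 20 reads on each side of a cluster, by RefSeq order. Other pseudocounts, TMM scaling and other minimums were tried.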

Additional observations from a re-analysis of the deposited data

Results flagged for a closer look

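Grb10 moved in opposite directions with PD0325901 in the 2 cell states, with counting intervals on opposite sides of 1. Its log2 ratio was -0.19 in KH2 cells, at 46.6 RPKM treated and 53.3 RPKM untreated, and 0.44 in Erk KO cells, at 20.2 RPKM treated and 14.7 RPKM untreated. Neither passed, and the difference was not tested.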

How the results depend on the processing

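Of the 42 ratios of members that passed, 42 still passed with a pseudocount of 0.1, 37 with a pseudocount of 1 and 36 with TMM scaling, and none turned its sign under these 3 settings. With a pseudocount of 1, the members lower in treated Erk KO cells were 1 instead of 2, since Nnat (log2 ratio -0.88) was lost, and those higher after 48 hours without Dox were 1 instead of 2, since Plagl1 (0.93) was lost. With TMM scaling 5 members instead of 10 were lower in the line against KH2 cells, where that scaling moves the median of all genes. For the effect of PD0325901 over 4 libraries, 8 members higher and 5 lower became 5 and 1 with DESeq2, 1 and 1 with all 6 libraries, and 0 and 0 without the block on cell state. The cause was not tested. Counts in the 5 comparisons without a minimum on reads or RPKM, and with at least 50 reads, were within 1.5 times those reported. The groups hold 1 library each, so leaving out a library ends a comparison, and no such value was computed.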
